A study of Mus musculus with 36 samples.

Results

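The laminin chains and the integrin subunits were followed through P-bodies, cytoplasm and polysomes of mouse cells. Members were all genes whose symbol is Lama, Lamb or Lamc with a chain number, or Itga or Itgb with a subunit number or letter, leaving out integrin binding proteins. This gave 39 of the 25239 genes in the table of P-body and cytoplasm libraries, with 11 laminin chains, 18 integrin alpha subunits and 10 integrin beta genes. All 39 were also present among the 25229 genes of the polysome table and the 48440 genes of the Ago2 knockout (KO) table. Itgbl1 fell under the rule by its symbol, although its protein is a secreted relative of the beta subunits and not a receptor chain.

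P-bodies are membraneless granules of the cytoplasm in which mRNAs are kept from translation. Here a GFP fusion of the P-body protein LSM14A made them visible to a particle sorter, and the sorted P-bodies were compared with the cytoplasmic material from which they were sorted. Naive embryonic stem (ES) cells (label "Naïve ES cells") were v6.5 cells grown in 2i/LIF, and primed ES cells were moved to Matrigel, a laminin-rich matrix, with activin A and bFGF. Mouse embryonic fibroblasts (MEFs) carried doxycycline-inducible reprogramming factors in Col1a1 and the M2-rtTA activator at Rosa26. They were taken without reprogramming, as a control at day 3 of doxycycline, or at day 3 with a short hairpin against Nudt21, the cleavage factor that steers the choice of polyadenylation site (KD). Ago2 KO ES cells were v6.5 cells from which the start of Ago2 was cut by paired guides, grown up from single sorted cells and labelled as naive. For ribosome occupancy, naive ES cells of a single-cell clone in which both Ddx6 alleles carry an FKBP12 degron were harvested with the inducer dTAG-13, which removes the DDX6 protein, or without it, so the control cells carried the degron as well. Ribosome-bound RNA was pooled from sucrose gradients and total RNA was kept from the same cleared lysates. There were 2 libraries in each group of sorted P-bodies or cytoplasm and 3 in each of polysome or total RNA, and the 36 libraries made 16 groups. The 6 conditions with sorted P-bodies are called cell types below. Of these, Ago2 KO cells are a genotype of naive ES cells, and both day 3 groups are treated MEFs. The labels do not say what a replicate number marks, while the paper describes at least 2 biological replicates for its sequencing assays. At which step the replicates of sorted material were separated is not stated.

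Laminins are heterotrimers of an alpha, a beta and a gamma chain that are secreted and assemble into the sheet of the basement membrane. Integrins are heterodimers of an alpha and a beta subunit that span the plasma membrane and bind laminins, collagens, fibronectin or other cells. The mRNAs of both families are translated at the endoplasmic reticulum. Contact between integrins and laminin carries polarity and survival signals in the early epiblast, while integrins that bind fibronectin and collagen carry the adhesion of fibroblasts.

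Levels below are given as counts-per-million (CPM) of the assigned reads of each library, and comparisons between genes as CPM per kb of the longest annotated transcript. A log2 value is the fitted log2 fold change with its standard error (SE), and a gene was called at an adjusted p under 0.05 in edgeR's quasi-likelihood test after Benjamini-Hochberg adjustment over all genes tested. Fitted values use TMM-scaled library sizes of the libraries in each fit, so that they can differ from the ratio of the CPM printed beside them. P-body enrichment means P-body over cytoplasm, and ribosome occupancy means ribosome-bound over total RNA. That libraries did not overlap between groups is given as a description and not as a further test. It held for almost all called members and also for many that were not called. Assigned reads per library ran from 6769727 to 12772173 in ES cell fractions, 19384697 to 31185799 in fibroblast fractions, 13308776 to 29362187 in polysome and total RNA libraries and 15624342 to 17486206 in Ago2 KO libraries. The labels held against their markers: a fibroblast list of 8 genes summed to 44280 and 39930 CPM in MEF cytoplasm against 82.1 and 52.7 CPM in naive cytoplasm, and Nudt21 fell from 88.3 and 91.9 CPM at day 3 to 5.67 and 4.96 CPM with the hairpin. The cytoplasmic libraries of Ago2 KO cells differed most within their group (chi-square over degrees of freedom 334) and the naive P-body libraries least (1.82). In Ago2 KO cytoplasm the 10 most abundant genes held 25.0% and 41.6% of the reads, against 4.05% and 4.28% in naive cytoplasm. The part of this in the levels printed for Ago2 KO cells was not tested. In these bulk samples, fewer cells of a type and less RNA per cell cannot be told apart.

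The laminin transcripts were long in coding sequence and short in the 3′ untranslated region (UTR). The median coding length of the 11 laminins was 5451 bases against 1380 bases over the 14292 genes tested in naive cells that had a transcript in the annotation, and their median 3′ UTR was 210 bases against 1066 bases. Integrin alpha subunits had medians of 3444 coding bases and 1302 bases of 3′ UTR, and the 10 integrin beta genes 2376 and 849 bases. The 3′ UTRs of the laminins ran from 110 to 2551 bases and those of the alpha subunits from 164 to 6994 bases.

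MicroRNAs pair with mRNAs mainly through their seed, bases 2 to 8. The seeds of 3 mature microRNAs were searched for in the 3′ UTRs: let-7a, which accumulates as cells leave pluripotency, miR-294, which is abundant in ES cells, and miR-29a, which is known for extracellular matrix targets. Their mature sequences from RefSeq (GRCm38.p6) are shown because the letters searched derive from them, with the seed in capitals.

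mmu-let-7a-5p: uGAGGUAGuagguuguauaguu
mmu-miR-294-3p: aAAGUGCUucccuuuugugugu
mmu-miR-29a-3p: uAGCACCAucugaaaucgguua

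The let-7 match CTACCTC was found in the 3′ UTRs of 6 of the 39 members (15.4%, against 8.85% of 20952 genes with a 3′ UTR), in Itga2, Itga4, Itgad, Itgal, Itgb3 and Itgb8. The miR-294 match AGCACTT was found in Itgb3, Itgb8 and Lama3, 3 of 39 (7.69% against 14.5%). The miR-29a match TGGTGCT was found in 7 of 39 (17.9% against 13%), in Lamc1, Itgb1, Itga4, Itga5, Itga9, Itgb3 and Itgbl1. The sense strand of the transcript was read, no 2 of these motifs overlap in sequence, and a match is a run of letters and not evidence of binding. The matches of Itgb8 are printed because it was the member enriched in P-bodies of primed cells, and those of Lamc1 and Itgb1 because these genes are named in each comparison below. Capitals mark the match.

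Itgb8, miR-294 match at 3′ UTR base 211: actagtgttgtAGCACTTtattgtaatat
Itgb8, miR-294 match at 3′ UTR base 1643: tgctgctctccAGCACTTgaaagttatta
Itgb8, miR-294 match at 3′ UTR base 3937: ttagatttcacAGCACTTtgtaagtttga
Itgb8, let-7 match at 3′ UTR base 1307: acaataatactCTACCTCttgaatctgta
Lamc1, miR-29a match at 3′ UTR base 1398: atctgacacacTGGTGCTattaattattt
Itgb1, miR-29a match at 3′ UTR base 787: tctttaattccTGGTGCTcctttatcacc

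On mm10 the printed stretches of Itgb8, each a match with 11 bases on either side, lie on the minus strand, in the 3′ UTR, at chr12:119162889-119162917, chr12:119161457-119161485 and chr12:119159163-119159191 for miR-294 and at chr12:119161793-119161821 for let-7. The Lamc1 stretch lies on the minus strand at chr1:153220058-153220086 and the Itgb1 stretch on the plus strand at chr8:128732864-128732892.

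Of the 39 members, 33 reached a mean of 2 CPM in at least 1 group. Itgad, Itgax, Itgb2, Itgb2l, Itgb6 and Lamc3 stayed under that level in every group. The read minimum of the tests left 28 to 36 of the 39 members in a comparison, and the rest had fewer than 10 reads over its libraries. Per kb of transcript, Lamc1, the gamma chain of most laminins, was the most abundant laminin in naive cytoplasm at 169 ± 33.2 CPM per kb (SD, n = 2). Lamb2 followed at 47.0 ± 21.7 and Lama5 at 21.6 ± 3.27, and the libraries of these neighbours did not overlap. Among integrins Itga5, the alpha subunit of the fibronectin receptor, led at 127 ± 36.8 CPM per kb. Itgb1, the beta subunit shared by most laminin and collagen receptors, stood at 78.8 ± 28.9, and its libraries overlapped those of the laminin receptor subunit Itga6 at 70.9 ± 9.88. Itgb5 (60.4 ± 2.93) and Itga3 (32.5 ± 1.6) came next.

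Primed cytoplasm had Lamb1, the classical beta chain, at the top with 88.8 ± 4.10 CPM per kb, before Lamc1 at 67.8 ± 3.53 and Lama5 at 57.6 ± 2.69. Its leading integrin was Itgb1 at 162 ± 12.4, followed by Itga6 at 67.7 ± 1.35, Itga3 at 43.0 ± 1.89, Itga5 at 34.2 ± 1.0 and Itgb5 at 27.2 ± 8.45, with no overlap between neighbours. MEF cytoplasm held Itgb1 at 859 ± 5.0 CPM per kb, above Itga5 at 189 ± 12.2, Itgb5 at 117 ± 19.3, the collagen receptor subunit Itga11 at 77.6 ± 6.23 and Itgav at 51.6 ± 0.261. Its laminins were led by Lamb1 at 81.7 ± 5.48, Lamb2 at 39.7 ± 3.20 and Lamc1 at 30.8 ± 1.5.

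At day 3 of reprogramming Lama4 stood first among the laminins at 79.7 ± 0.444 CPM per kb, before Lamb2 at 71.3 ± 1.28 and Lamb1 at 43.1 ± 0.0122. Itgb1 at 310 ± 18.9 and Itgb5 at 174 ± 16.5 were followed by Itgb4, the beta partner of Itga6 in hemidesmosomes, at 129 ± 0.376, then by Itgav at 27.6 ± 2.12 and Itga5 at 21.5 ± 0.649. With the Nudt21 hairpin Lamc1 led the laminins at 144 ± 2.97, before Lama4 at 119 ± 1.63 and Lamb1 at 44.1 ± 0.807. Itgb1 (333 ± 1.85) was followed by Itgb4 (145 ± 1.21), Itgb5 (120 ± 7.73), Itgav (73.5 ± 0.792) and Itga5 (27.9 ± 0.775).

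Lamc1 was the first laminin, as in naive cytoplasm, in the ES cell libraries of the other tables too. In Ago2 KO cytoplasm Lamc1 stood at 46.4 ± 20.4 CPM per kb, and Lamb2 stood next at 8.27 ± 2.48. There Itgb1 led the integrins at 69.0 ± 13.7, Itga6 (46.7 ± 17.1) and Itga5 (37.7 ± 10.9) overlapped, and Itga3 (14.1 ± 6.11) and Itgb5 (7.71 ± 1.4) were lower. In total RNA of control degron cells Lamc1 reached 81.2 ± 6.26 CPM per kb (SD, n = 3), far above Lama5 at 7.44 ± 0.181 and Lamb2 at 6.71 ± 0.329, and Itgb1 reached 51.5 ± 3.56, before Itga6 (28.7 ± 1.17), Itgb5 (22.2 ± 1.42), Itga5 (17.2 ± 1.06) and Itgav (12.7 ± 1.5). Total RNA with DDX6 removed had Lamc1 at 75.0 ± 3.27, Lamb2 at 6.70 ± 0.355 and Lama5 at 6.08 ± 0.133, and the integrins Itgb1 (49.6 ± 1.6), Itga6 (28.4 ± 0.874), Itgb5 (21.1 ± 0.456), Itga5 (17.7 ± 0.333) and Itgav (10.6 ± 0.401). The 3 tables were quantified separately, so no level was tested between them.

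**Figure D1:**
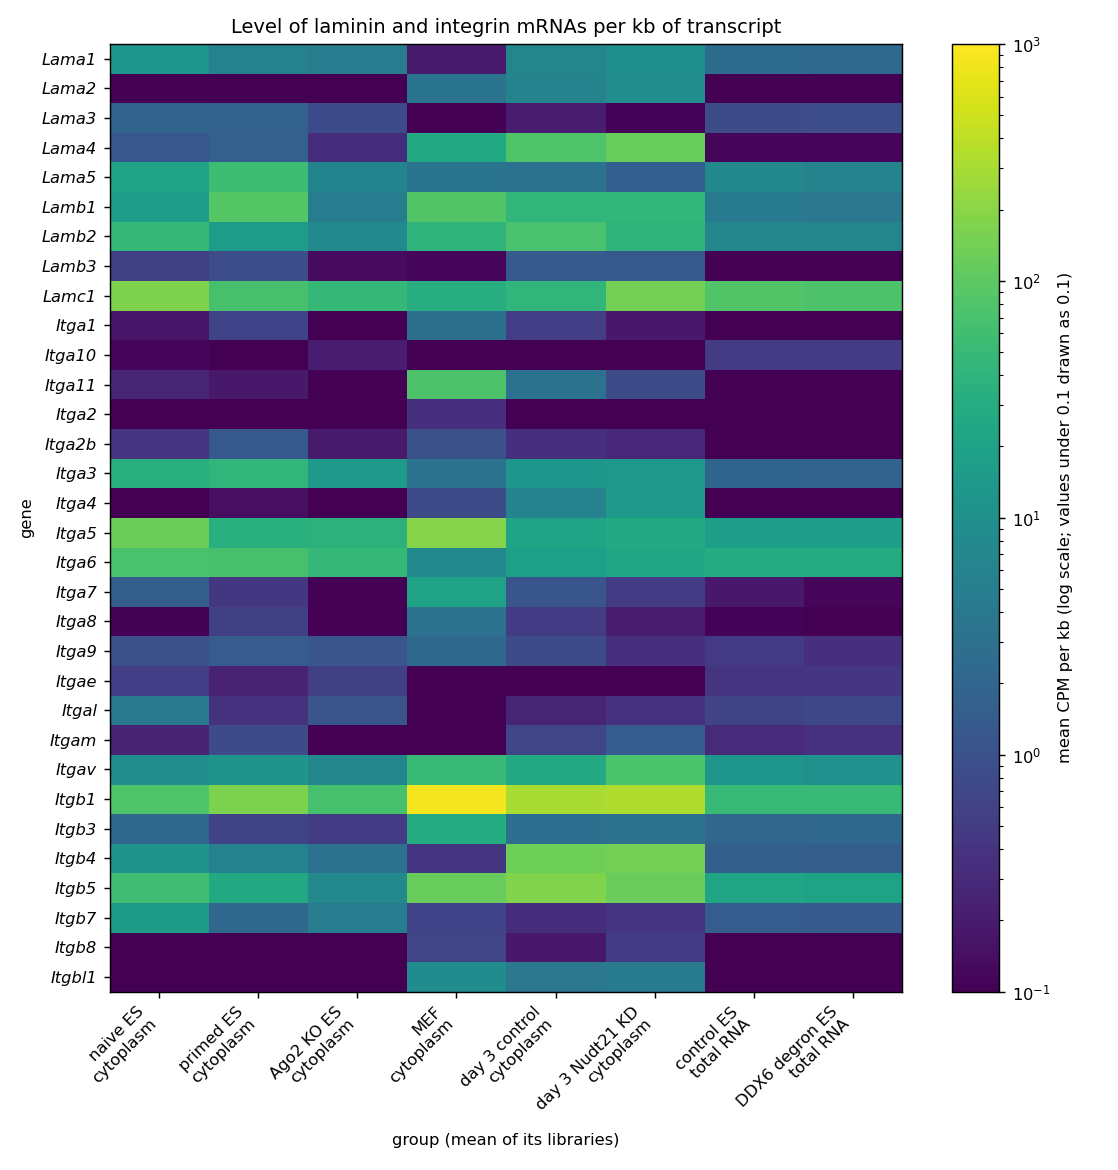
Heat map of the mean level, in CPM per kb on a log color scale, of 32 members that reached 2 CPM in any group (rows, laminins and integrins) in the cytoplasm of 6 cell types and in total RNA with and without DDX6 (columns). Itgb1 is high in every column and reaches its highest level in MEFs at 859 CPM per kb, while Lamc1 is highest in naive cytoplasm at 169 CPM per kb.

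The first comparison of levels asked which laminins and integrins differ between naive and primed ES cells. In cytoplasm, 7 of 31 members tested were higher and 9 were lower in primed cells, or 22.6% and 29.0%, near the 21.6% and 22.1% of all genes tested that were higher and lower. The median log2 value of the members was -0.04 and that of all genes -0.003. The gamma chain Lamc1 fell, with 536 and 498 CPM against 1470.0 and 1112 CPM (log2 -1.30 ± 0.16, edgeR adjusted p = 0.00231) in primed and naive cells. Lamb1 rose from 67.9 and 134 CPM to 530.1 and 497 CPM (log2 2.38 ± 0.30, edgeR adjusted p = 0.00241). Among the laminins 2 of 10 rose (Lamb1 and Lama5) and 4 fell, and the libraries of the called ones did not overlap.

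The shared beta subunit Itgb1 rose from 379 and 223 CPM in naive to 649.8 and 583 CPM in primed cytoplasm (log2 1.06 ± 0.25, edgeR adjusted p = 0.0193). The fibronectin receptor subunit Itga5 fell from 672 and 444 CPM to 153 and 147 CPM (log2 -1.87 ± 0.21, edgeR adjusted p = 0.00170). Of the subunits known from leukocytes, Itgal went from 23.1 and 18.4 CPM to 2.34 and 1.65 CPM (log2 -3.36 ± 0.30, edgeR adjusted p = 0.000831) and Itgb7 from 48.8 and 31.8 CPM to 6.37 and 5.73 CPM (log2 -2.71 ± 0.28, edgeR adjusted p = 0.00126). Others of that kind were not called, Itgae at log2 -1.14, Itgam at 1.78 and Itgb2 at 0.24. The sum of a macrophage list of 6 genes was 26.1 and 52.8 CPM in naive and 9.75 and 9.37 CPM in primed cytoplasm, almost all from Cd68, while Adgre1, Tyrobp and C1qa were at 0 in both. The 5 endothelial markers summed to 369.9 and 372 CPM in naive and 31.9 and 32.0 CPM in primed cytoplasm, mostly from Pecam1 in naive cells, with Emcn at 0 in both. The 5 primitive endoderm markers summed to 20.3 and 16.5 CPM in naive and 84.0 and 72.3 CPM in primed cytoplasm, mostly from Dab2 in primed cells. The part of these lists in the changes of laminins and integrins was not tested.

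Low integrins that rose in primed cells were Itga8, a partner of Itgb1 for RGD ligands, from 0.823 and 0.409 CPM to 3.25 and 3.42 CPM (log2 2.44 ± 0.51, edgeR adjusted p = 0.0117), and the collagen receptor subunit Itga1, from 2.31 and 1.47 CPM to 7.67 and 6.17 CPM (log2 1.89 ± 0.38, edgeR adjusted p = 0.0102). The platelet subunit Itga2b went from 1.65 and 1.15 CPM to 3.38 and 5.18 CPM (log2 1.64 ± 0.43, edgeR adjusted p = 0.0265). Itgb8, the TGF-beta activating subunit, had no read in either naive library and 1 and 6 reads in the primed ones. Its primed mean lay 1.61-fold above a floor of 3 reads per library, but the primed library with 1 read lay under that floor. Itgb8 was not among the 31 members tested. Without either primed library the calls of Itgb1, Itga8, Itga1 and Itga2b were lost, with edgeR adjusted p from 0.0671 to 0.228 in such fits. The log2 value of Itga8 was 3.03 without naive replicate 1, and 6 and 7 members were called without primed replicate 1 and 2.

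A partner list of basement membrane and adhesion genes that are no members had 27 genes above the read minimum, and 8 of 27 were higher and 12 lower in primed cytoplasm. The kindlin Fermt1 (log2 5.61 ± 0.42, edgeR adjusted p = 0.000489) and the adhesion protein Zyx (log2 3.09 ± 0.29, edgeR adjusted p = 0.000938) rose most, and Tns1 (log2 -4.17 ± 0.28, edgeR adjusted p = 0.000358) and the laminin-binding nidogen Nid1 (log2 -3.99 ± 0.13, edgeR adjusted p = 0.000107) fell most.

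Between fibroblasts and naive ES cells, most members differed in cytoplasm. Of 35 tested, 17 were higher and 13 lower in MEFs, or 48.6% and 37.1%, beside 35.9% and 36.0% of all genes. Members such as Itgb8 and Itga2 passed the read minimum through MEFs alone. The median of the laminins was -2.15 against 1.30 for alpha and 2.30 for beta genes (0.01 over all genes). Lamc1 was lower in MEFs, at 243 and 227 CPM against 1470.0 and 1112 CPM (log2 -2.35 ± 0.17, edgeR adjusted p = 0.000202) in MEF and naive cytoplasm. The muscle and fibroblast laminin chain Lama2 was higher, at 31.9 and 35.4 CPM against 0.0823 and 0.0819 CPM (log2 8.67 ± 0.31, edgeR adjusted p = 3.30e-05). Lama1, the alpha chain of the embryonic basement membrane, and the epithelial chain Lama3 were lower. Lama1 had 1.29 and 2.44 CPM in MEFs and 162 and 79.4 CPM in naive cells (log2 -5.91 ± 0.51, edgeR adjusted p = 0.000333), and Lama3 had 0.258 and 0.338 CPM and 19.6 and 19.9 CPM (log2 -5.92 ± 0.28, edgeR adjusted p = 6.02e-05).

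Itgb1 was 11.7-fold higher in MEFs, at 3292 and 3265 CPM against 379 and 223 CPM (log2 3.55 ± 0.29, edgeR adjusted p = 0.000267) in naive cells. The collagen receptor subunit Itga11 stood at 408 and 364 CPM against 2.47 and 0.246 CPM (log2 8.25 ± 0.60, edgeR adjusted p = 0.000197), and Itgbl1 at 37.8 and 35.2 CPM against 0.247 and 0 CPM (log2 8.24 ± 0.50, edgeR adjusted p = 0.000113). Both were close to 0 in each naive library and far above it in each MEF library. Without naive replicate 1, Itga11 and Itgbl1 had log2 values of 10.65 and 12.66, and without naive replicate 2 of 7.35 and 7.24. The naive libraries held 30 and 3 reads of Itga11 and 3 and 0 of Itgbl1. Itgb8 and the collagen receptor subunit Itga2 had no read in naive cytoplasm. Itgb8 had 6.12 and 5.52 CPM in MEFs, at least 23.6-fold higher against a floor of 3 reads per library (log2 9.86 ± 0.77, edgeR adjusted p = 0.000590, where the fitted value depends on the prior count), and Itga2 was at least 9.97-fold higher.

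The integrins that were lower in MEFs included Itgb4, at 2.51 and 2.85 CPM against 80.4 and 57.0 CPM (log2 -4.57 ± 0.25, edgeR adjusted p = 8.44e-05), and the leukocyte subunit Itgal, at 0 and 0.0375 CPM against 23.1 and 18.4 CPM (log2 -9.60 ± 0.52, edgeR adjusted p = 8.57e-05). The value of Itgal was -8.76 without MEF replicate 1 and -11.42 without replicate 2. Macrophage markers summed to 4.06 and 3.72 CPM in MEF cytoplasm. Of the partner genes, 18 of 26 were higher and 5 lower in MEFs, with the basement membrane collagen chain Col4a1 (log2 5.64 ± 0.14, edgeR adjusted p = 2.26e-05) and Zyx (log2 5.62 ± 0.32, edgeR adjusted p = 9.31e-05) highest, and the laminin receptor Bcam (log2 -6.69 ± 0.35, edgeR adjusted p = 7.62e-05) and the blood kindlin Fermt3 (log2 -4.97 ± 0.32, edgeR adjusted p = 0.000133) lowest. Cell type, culture medium and the reprogramming transgenes differ together in this comparison and cannot be told apart.

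MEFs after 3 days of doxycycline were compared with untreated MEFs to follow the change of levels early in reprogramming. The paper's induction medium also held LIF, ascorbic acid and more serum than its MEF growth medium. Medium and induced factors cannot be told apart in this comparison. In cytoplasm 16 of 36 members were higher and 14 lower at day 3, or 44.4% and 38.9%, beside 35.5% and 33.7% of all genes. The laminins mostly rose, 8 of 11 with 1 lower (Lamb1), while of the alpha subunits 5 rose and 9 fell and of the beta genes 3 rose and 4 fell. The medians were 0.88 for laminins, -1.09 for alpha and -0.88 for beta genes, against 0.04 over all genes.

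Itgb4 rose most, from 2.51 and 2.85 CPM in MEFs to 800.2 and 804 CPM at day 3 (log2 8.26 ± 0.09, edgeR adjusted p = 2.52e-18). Lama1 rose from 1.29 and 2.44 CPM to 64.9 and 64.7 CPM (log2 5.16 ± 0.17, edgeR adjusted p = 2.45e-13), and Lamb3, the beta chain of the epithelial laminin that binds the receptor of Itga6 and Itgb4, from 0.738 and 0.413 CPM to 6.53 and 6.6 CPM (log2 3.54 ± 0.29, edgeR adjusted p = 2.20e-08). The libraries did not overlap for any of them. Lamc1 rose by less, from 243 and 227 CPM to 324 and 332 CPM (log2 0.52 ± 0.06, edgeR adjusted p = 7.63e-07). Itga4, a partner of Itgb1 that binds fibronectin and VCAM1, rose from 7.27 and 8.71 CPM to 59.8 and 54.5 CPM (log2 2.88 ± 0.12, edgeR adjusted p = 3.45e-12).

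The integrins with the highest levels per kb in MEFs mostly fell, while Itgb5 was 1.53-fold higher at day 3. Itgb1 went from 3292 and 3265 CPM to 1234 and 1132 CPM (log2 -1.43 ± 0.05, edgeR adjusted p = 1.27e-12), and Itga5 from 866 and 791 CPM to 96.4 and 92.4 CPM (log2 -3.10 ± 0.06, edgeR adjusted p = 1.30e-15). The collagen receptor subunit Itga11 went from 408 and 364 CPM to 14.4 and 18 CPM (log2 -4.54 ± 0.09, edgeR adjusted p = 1.57e-15). Each of these drops separated all MEF libraries from all day 3 libraries. The laminin receptor subunit of muscle, Itga7, went from 84.6 and 75.6 CPM to 4.82 and 4.72 CPM (log2 -4.03 ± 0.11, edgeR adjusted p = 3.29e-14), and Itgb3, the beta partner of Itgav, from 182 and 165 CPM to 17.3 and 16.6 CPM (log2 -3.32 ± 0.08, edgeR adjusted p = 8.25e-15).

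Marker lists moved between these groups as well. The 8 fibroblast markers summed to 5566 and 5444 CPM at day 3 against 44280 and 39930 CPM in MEFs, the 5 endothelial markers to 209 and 199.5 CPM against 1.03 and 1.65 CPM, nearly all from Tek, and the 4 keratinocyte markers to 2.04 and 1.92 CPM against 0.0369 and 0.15 CPM, with Krt5, Krt14 and Krt15 at 0 in MEFs. Their part in the changes of Itgb4, Lamb3 and the others was not tested. Among the partners, 9 of 26 rose and 15 fell, with Nid2 (log2 1.98 ± 0.07, edgeR adjusted p = 3.73e-13) and Agrn (log2 1.53 ± 0.08, edgeR adjusted p = 5.84e-11), both basement membrane components, highest and fibronectin Fn1 (log2 -2.17 ± 0.05, edgeR adjusted p = 3.94e-15) and Lims1 (log2 -1.33 ± 0.06, edgeR adjusted p = 3.62e-11) lowest.

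**Figure D2:**
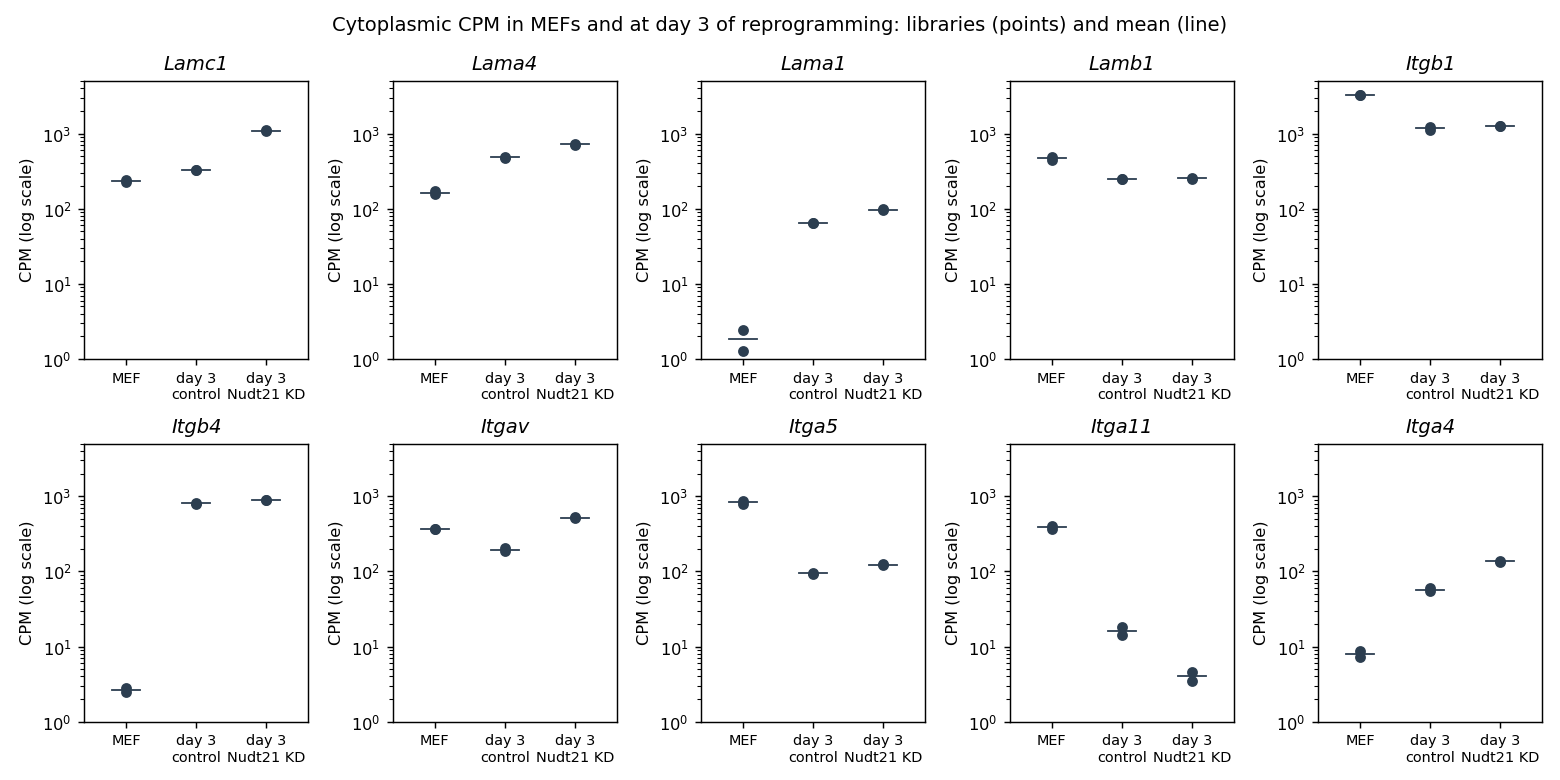
Cytoplasmic level in CPM on a log axis of 10 laminin and integrin genes in MEFs, day 3 control and day 3 Nudt21 knockdown, with 1 point per library. Itgb4, Lama1 and Itga4 lie higher in both day 3 groups than in MEFs, Itga5 and Itga11 lie lower, and Lamc1 and Itgav lie higher with the knockdown than at day 3 without it.

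The knockdown of Nudt21 was compared with the day 3 control. In cytoplasm 11 of 36 members were higher and 9 lower, or 30.6% and 25.0%, near the 24.6% and 25.0% of all genes, and the members had a median log2 value of 0.12 (-0.01 over all genes). Lamc1 was 3.31-fold higher, at 1079 and 1111 CPM with the hairpin and 324 and 332 CPM without (log2 1.73 ± 0.06, edgeR adjusted p = 2.97e-13). Itgav, the alpha subunit of vitronectin receptors, rose from 205 and 184 CPM to 522 and 515 CPM (log2 1.4 ± 0.07, edgeR adjusted p = 2.82e-11). Its partner Itgb8 rose from 1.82 and 1.34 CPM to 4.80 and 3.42 CPM (log2 1.37 ± 0.29, edgeR adjusted p = 0.000752) and Itga4 from 59.8 and 54.5 CPM to 139 and 134 CPM (log2 1.24 ± 0.08, edgeR adjusted p = 6.48e-10), without overlap of libraries.

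Of the collagen and laminin receptor subunits some were lower with the hairpin, while Itga6 was 1.36-fold and Itgb4 1.11-fold higher. Itga11 fell from 14.4 and 18 CPM to 3.48 and 4.54 CPM (log2 -2.04 ± 0.18, edgeR adjusted p = 5.98e-08), Itga1 from 5.56 and 6.14 CPM to 2.16 and 1.92 CPM (log2 -1.52 ± 0.23, edgeR adjusted p = 3.36e-05) and Itga7 from 4.82 and 4.72 CPM to 1.90 and 2.06 CPM (log2 -1.28 ± 0.25, edgeR adjusted p = 0.000318). Itga9, which binds tenascin and other matrix proteins, fell from 5.71 and 6.21 CPM to 2.26 and 2.62 CPM (log2 -1.31 ± 0.23, edgeR adjusted p = 0.000115). Itgb1 had 1277 and 1267 CPM against 1234 and 1132 CPM (log2 0.09 ± 0.06, edgeR adjusted p = 0.176) and was not called. Macrophage markers summed to 104.2 and 100.7 CPM with the hairpin and 11.5 and 15.3 CPM without, nearly all from Cd68, with Tyrobp and C1qa at 0 in both groups, and fibroblast markers to 1753 and 1777 CPM against 5566 and 5444 CPM. Their part in these values was not tested. Of the partner list, 6 of 26 rose, led by the laminin-binding integrin associate Cd151 (log2 1.01 ± 0.09, edgeR adjusted p = 7.86e-08) and Tns3 (log2 0.55 ± 0.07, edgeR adjusted p = 7.57e-06), and 14 fell, with Bcam (log2 -2.0 ± 0.21, edgeR adjusted p = 6.48e-07) and Zyx (log2 -1.42 ± 0.06, edgeR adjusted p = 6.22e-12) lowest.

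P-body enrichment asked where the same mRNAs sit in the cell. The members were more often depleted from P-bodies than enriched in them in each of the 6 cell types. Lamc1 was the member depleted in all 6, though its calls in naive and Ago2 KO cells were lost without either P-body library. Lama1 and Lama5 were depleted in 5, and Lama4, Lamb1, Itga3, Itga5 and Itgb4 in 4. In all, 29 of the 39 members were depleted in at least 1 cell type, among them 10 of the 11 laminins. Enriched anywhere were 3: Itgb8 in primed cells, and Itga10 and Itga2b in MEFs. Both MEF calls were lost with all groups in 1 fit. Of the 36 members tested in at least 1 cell type, 80.6% were thus depleted somewhere, beside 42.9% of the 18878 genes tested, of which 43.2% were enriched somewhere. No call was made in any cell type for 8 members, the 3 untested ones included. P-bodies were sorted from the same material as the cytoplasm libraries, which therefore contain P-body RNA.

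**Figure D3:**
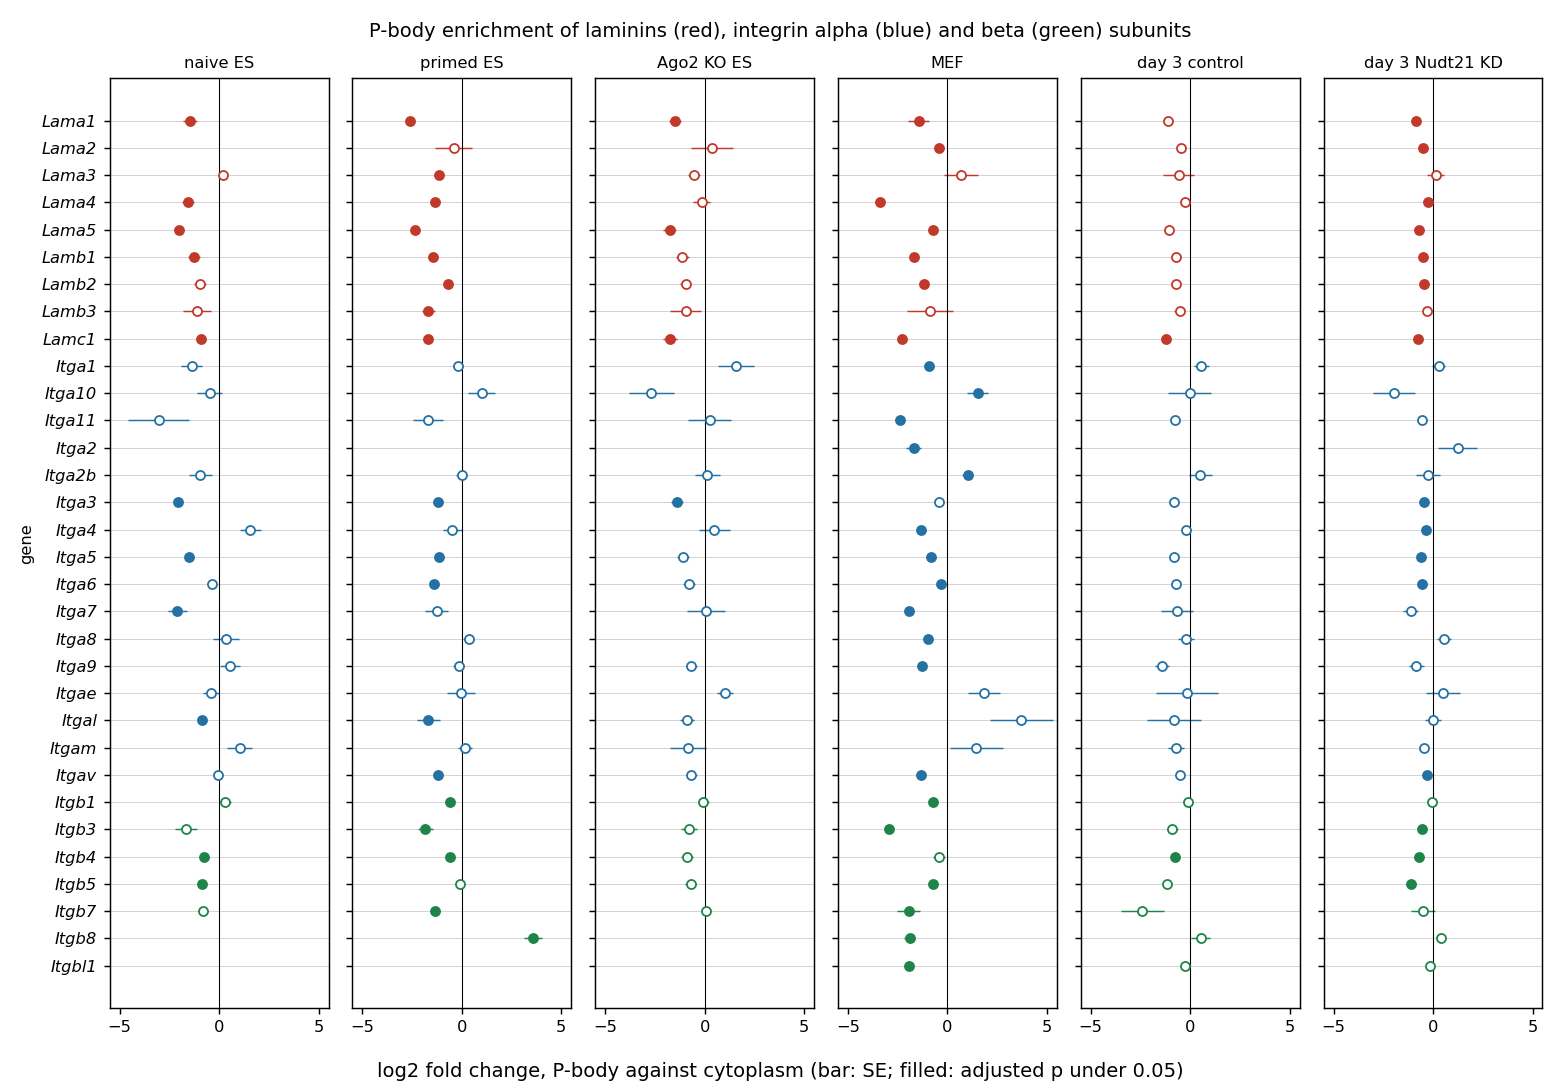
P-body enrichment of the members in 6 cell types as the fitted log2 ratio of P-body to cytoplasm, with error bars of 1 SE and filled points for calls at an adjusted p under 0.05. Most points lie left of 0, Lamc1 is filled in all 6 cell types, and the filled points right of 0 are Itgb8 in primed cells and Itga10 and Itga2b in MEFs.

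In naive ES cells 11 of 31 members were depleted from P-bodies and 0 enriched, or 35.5% and 0%, beside 15.4% of all genes depleted and 22.6% enriched. The median log2 enrichment was -0.86 for the members and -0.06 for all genes. Lamc1 had 566 and 572 CPM in P-bodies against 1470.0 and 1112 CPM in cytoplasm (log2 -0.94 ± 0.16, edgeR adjusted p = 0.00815). Lama5, the alpha chain of the laminin around the epiblast, had 54.3 and 48.5 CPM in P-bodies against 272 and 219 CPM in cytoplasm (log2 -2.01 ± 0.16, edgeR adjusted p = 0.000713), and Lama4 had 2.43 and 1.87 CPM in P-bodies against 7.99 and 6.96 CPM in cytoplasm (log2 -1.55 ± 0.30, edgeR adjusted p = 0.0129). All cytoplasmic libraries of these chains lay above the P-body libraries. Of the 10 laminins tested 5 were depleted, with a median of -1.16.

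Among the naive integrins called, the laminin receptor subunits Itga7 and Itga3 were lowest. Itga7 had 1.12 and 1.38 CPM in P-bodies against 4.04 and 8.84 CPM in cytoplasm (log2 -2.1 ± 0.49, edgeR adjusted p = 0.0231), and Itga3 had 30.5 and 32.2 CPM in P-bodies against 163 and 152 CPM in cytoplasm (log2 -2.09 ± 0.11, edgeR adjusted p = 0.000414). Itgb1 went the other way without being called. It had 319.7 and 314 CPM in P-bodies against 379 and 223 CPM in cytoplasm (log2 0.32 ± 0.26, edgeR adjusted p = 0.372). Its cytoplasmic libraries thus lay on either side of the P-body ones. Over all genes, the naive cytoplasm libraries differed from each other (chi-square over degrees of freedom 29.9) more than the naive P-body libraries did (1.82). Leaving out either naive P-body library ended the calls of Lamc1 (edgeR adjusted p = 0.0915 and 0.0945), Itga7 (0.142 and 0.116) and Lama4 (0.0962 and 0.159), with log2 values from -2.24 to -0.93, and left 3 members called. Without naive cytoplasm replicate 1 or 2, 18 and 23 members were called, and Itga7 had -1.42 without replicate 2. The partner genes were depleted in 16 of 27 and enriched in 3, with Tns1 (log2 -2.36 ± 0.25, edgeR adjusted p = 0.00169) and Col4a2 (log2 -1.59 ± 0.18, edgeR adjusted p = 0.00220) lowest, and Lims1 (log2 2.36 ± 0.18, edgeR adjusted p = 0.000659) and the focal adhesion kinase gene Ptk2 (log2 0.55 ± 0.12, edgeR adjusted p = 0.0172) highest.

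In primed ES cells 17 of 33 members were depleted and 1 was enriched, or 51.5% and 3.03%, beside 24.2% and 26.5% of all genes. The median was -0.72 against 0.001 over all genes, and 8 of 11 laminins were depleted with a median of -1.34. Chains of all 3 kinds were lower in P-bodies, among them the beta chain Lamb1 by 2.72-fold. Lamc1 had 144 and 158 CPM in P-bodies against 536 and 498 CPM in cytoplasm (log2 -1.73 ± 0.06, edgeR adjusted p = 6.61e-10), Lama1 had 8.0 and 9.74 CPM in P-bodies against 57.2 and 53.3 CPM in cytoplasm (log2 -2.59 ± 0.12, edgeR adjusted p = 5.92e-09) and Lama5 had 126 and 125 CPM in P-bodies against 635 and 678 CPM in cytoplasm (log2 -2.34 ± 0.05, edgeR adjusted p = 3.08e-11). In each case every P-body library lay below every cytoplasmic one. Itgb1 had 406 and 387 CPM in P-bodies against 649.8 and 583 CPM in cytoplasm (log2 -0.59 ± 0.06, edgeR adjusted p = 1.99e-06), and Itgb3 had 0.881 and 1.18 CPM in P-bodies against 4.55 and 3.20 CPM in cytoplasm (log2 -1.84 ± 0.37, edgeR adjusted p = 0.00110).

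Itgb8 was the exception. It had 68 and 65 reads in the primed P-body libraries and 1 and 6 reads in the cytoplasmic ones, that is 4.99 and 4.80 CPM in P-bodies against 0.130 and 0.661 CPM in cytoplasm (log2 3.56 ± 0.45, edgeR adjusted p = 2.92e-05). Its value rested on few cytoplasmic reads and was 2.90 without cytoplasm replicate 1 and 5.16 without replicate 2, both called. Of the partner genes 19 of 27 were depleted, with the collagen IV chains Col4a2 (log2 -2.09 ± 0.09, edgeR adjusted p = 2.39e-09) and Col4a1 (log2 -2.04 ± 0.08, edgeR adjusted p = 9.65e-10) lowest, and 6 were enriched, with Cd151 (log2 1.68 ± 0.12, edgeR adjusted p = 2.16e-07) and the kindlin Fermt2 (log2 0.86 ± 0.07, edgeR adjusted p = 9.38e-07) highest.

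MEFs had the most depleted members, 23 of 35, with 2 enriched, or 65.7% and 5.71%, beside 28.7% and 26.6% of all genes. The median was -0.91 for the members (0.03 over all genes) and -1.41 for the beta genes, of which 6 of 8 were depleted. Lama4, a laminin chain of mesenchyme and vessels, had 18.4 and 11.5 CPM in P-bodies against 169.9 and 156 CPM in cytoplasm (log2 -3.39 ± 0.19, edgeR adjusted p = 3.37e-06), the largest depletion of a called member in any cell type. Lamc1 had 43.5 and 48.2 CPM in P-bodies against 243 and 227 CPM in cytoplasm (log2 -2.30 ± 0.10, edgeR adjusted p = 1.66e-06). The shared beta subunit Itgb1 had 1841 and 1969 CPM in P-bodies against 3292 and 3265 CPM in cytoplasm (log2 -0.73 ± 0.07, edgeR adjusted p = 3.14e-05), and Itgb3 had 23.2 and 20 CPM in P-bodies against 182 and 165 CPM in cytoplasm (log2 -2.95 ± 0.12, edgeR adjusted p = 1.17e-06). The P-body libraries of all 4 genes lay below the cytoplasmic ones.

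The collagen receptor subunit Itga11 had 75.2 and 67.3 CPM in P-bodies against 408 and 364 CPM in cytoplasm (log2 -2.38 ± 0.10, edgeR adjusted p = 1.61e-06) in MEFs. The platelet subunit Itga2b had 7.54 and 5.35 CPM in P-bodies against 2.88 and 3.79 CPM in cytoplasm (log2 1.01 ± 0.26, edgeR adjusted p = 0.00946) and was enriched, but without cytoplasm replicate 1 its edgeR adjusted p was 0.12 at 0.83, and it was 0.0887 with all groups in 1 fit. The other enriched member, Itga10, was 2.88-fold higher in P-bodies, at a mean under the 2 CPM needed for naming. Enriched members numbered 1 with DESeq2 or the replicate block and 0 with all groups in 1 fit. Among the partners, 19 of 26 were depleted, with Fn1 (log2 -2.52 ± 0.08, edgeR adjusted p = 6.44e-07) and the laminin receptor dystroglycan Dag1 (log2 -2.25 ± 0.14, edgeR adjusted p = 4.28e-06) lowest, and 3 were enriched, with Cd151 (log2 1.35 ± 0.10, edgeR adjusted p = 7.47e-06) and Itgb1bp1 (log2 1.30 ± 0.12, edgeR adjusted p = 1.84e-05) highest.

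**Figure D4:**
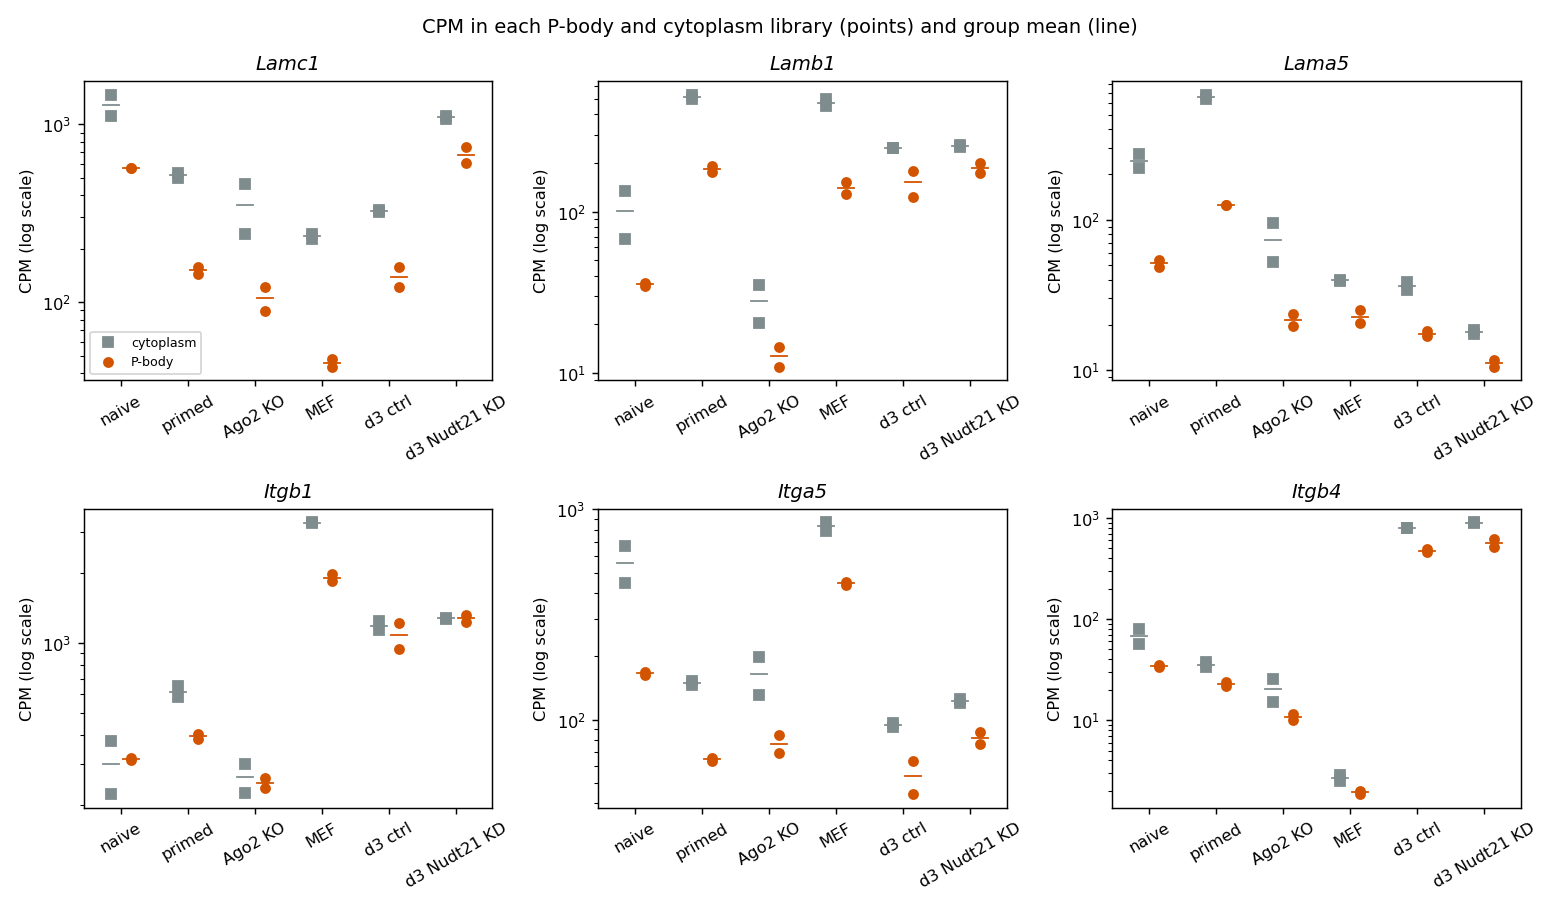
Level in CPM on a log axis of Lamc1, Lamb1, Lama5, Itgb1, Itga5 and Itgb4 in each P-body and cytoplasm library of the 6 cell types, with 1 point per library. The P-body points of Lamc1 lie below its cytoplasmic points in every cell type, whereas those of Itgb1 overlap its cytoplasmic points in all but primed cells and MEFs.

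At day 3 of reprogramming few genes of any kind were called, 0.450% depleted and 0.196% enriched, and 2 of 35 members were depleted and 0 enriched. At an unadjusted p under 0.05, 16 members passed. The members' median of -0.58 lay below the -0.01 of all genes, and 31 of 35 had a value below 0. The 2 called genes were Lamc1, with 158 and 121 CPM in P-bodies against 324 and 332 CPM in cytoplasm (log2 -1.22 ± 0.15, edgeR adjusted p = 0.0495), and Itgb4, with 495 and 456 CPM in P-bodies against 800.2 and 804 CPM in cytoplasm (log2 -0.74 ± 0.10, edgeR adjusted p = 0.0495). Itgb1 had 1218 and 943 CPM in P-bodies against 1234 and 1132 CPM in cytoplasm (log2 -0.12 ± 0.14, edgeR adjusted p = 0.648).

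The P-body libraries of the day 3 control differed from each other (chi-square over degrees of freedom 52.1) more than those of its cytoplasm (5.13). Without P-body replicate 1, 27 members were called, and without replicate 2, 19 were. The call of Itgb4 was lost without cytoplasm replicate 1 (edgeR adjusted p = 0.159) and replicate 2 (0.182). DESeq2 called 12 members. Of the partner list, 4 of 26 were depleted and 0 enriched, against 16 depleted with DESeq2 and 17 with all groups in 1 fit. The heparan sulfate proteoglycan Hspg2 (log2 -1.44 ± 0.11, edgeR adjusted p = 0.0495) and Fn1 (log2 -1.13 ± 0.13, edgeR adjusted p = 0.0495) were lowest.

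With the Nudt21 hairpin 16 of 36 members were depleted and 0 enriched, or 44.4% and 0%, beside 12.8% and 9.04% of all genes. The median was -0.47 against 0.003 for all genes, and the laminins with 8 of 11 depleted had a median of -0.49. Lamc1 had 604 and 744 CPM in P-bodies against 1079 and 1111 CPM in cytoplasm (log2 -0.74 ± 0.10, edgeR adjusted p = 0.00123), Lama1 had 52.6 and 57.8 CPM in P-bodies against 95.2 and 100 CPM in cytoplasm (log2 -0.86 ± 0.10, edgeR adjusted p = 0.000545) and Lama5 had 10.5 and 11.7 CPM in P-bodies against 18.5 and 17.4 CPM in cytoplasm (log2 -0.72 ± 0.15, edgeR adjusted p = 0.00748). The libraries of these chains did not overlap between fractions. Itgb5, a beta partner of Itgav, had 117 and 252 CPM in P-bodies against 412 and 376 CPM in cytoplasm (log2 -1.12 ± 0.25, edgeR adjusted p = 0.0117), and the P-body libraries were unequal, so that its value was -1.77 without P-body replicate 2. Itgb1 had 1318 and 1231 CPM in P-bodies against 1277 and 1267 CPM in cytoplasm (log2 -0.03 ± 0.08, edgeR adjusted p = 0.830).

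Lama5 lost its call without cytoplasm replicate 1 (edgeR adjusted p = 0.0815) or 2 (0.0582), and 5 and 6 members were called in those fits. DESeq2 gave Itgb5 an adjusted p of 0.123, and with all groups in 1 fit 8 members were called. Among partner genes 17 of 26 were depleted, with Hspg2 (log2 -1.71 ± 0.11, edgeR adjusted p = 2.90e-05) and Fn1 (log2 -1.04 ± 0.08, edgeR adjusted p = 9.64e-05) lowest, and 2 were enriched, Itgb1bp1 (log2 0.37 ± 0.11, edgeR adjusted p = 0.0330) and Cd151 (log2 0.37 ± 0.10, edgeR adjusted p = 0.0257).

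In Ago2 KO ES cells 4 of 29 members were depleted and 0 enriched, or 13.8% and 0%, beside 1.05% and 5.47% of all genes. The median was -0.78 against 0.04. Ago2 itself had 4.04 and 4.84 CPM in the KO cytoplasm. The depleted members were 3 laminins and 1 laminin receptor subunit. Lama5 had 19.7 and 23.7 CPM in P-bodies against 52.0 and 95.2 CPM in cytoplasm (log2 -1.76 ± 0.32, edgeR adjusted p = 0.0141), Lamc1 had 89.9 and 122 CPM in P-bodies against 244 and 464 CPM in cytoplasm (log2 -1.74 ± 0.37, edgeR adjusted p = 0.0270) and Lama1 had 14.6 and 18.2 CPM in P-bodies against 33.4 and 60.0 CPM in cytoplasm (log2 -1.5 ± 0.32, edgeR adjusted p = 0.0270). Itga3 had 24.9 and 26.7 CPM in P-bodies against 47.4 and 89.4 CPM in cytoplasm (log2 -1.4 ± 0.32, edgeR adjusted p = 0.0342). No P-body library overlapped a cytoplasmic one for these 4 genes, nor for many members that were not called. Itgb1 had 238 and 263 CPM in P-bodies against 226 and 300.2 CPM in cytoplasm (log2 -0.07 ± 0.28, edgeR adjusted p = 0.914).

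Without P-body replicate 1, 0 members were called, and without replicate 2, 1 was. Without cytoplasm replicate 1, 15 were called, and without replicate 2, 7 were. The edgeR adjusted p of the 4 genes without P-body replicate 1 ran from 0.122 to 0.362. DESeq2 called 7 members, DESeq2 size factors within edgeR 2 (with 0.0513 for Lama1 and 0.0616 for Itga3), and no read minimum 10. A block for the replicate number called 14 members, 13 depleted and 1 enriched. Over all genes the block called 1613 depleted and 2565 enriched, against 176 and 919 without it. Of the partner genes Lims1 (log2 1.19 ± 0.27, edgeR adjusted p = 0.0328) was enriched and Hspg2 (log2 -2.01 ± 0.37, edgeR adjusted p = 0.0144) depleted, 1 of 27 each, while DESeq2 called 9 partners depleted, no read minimum 12 and the fit without cytoplasm replicate 1 19. These libraries were quantified by another method than the naive ones, and no test was made between them.

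Whether enrichment itself differs between cell types was tested as a contrast over both fractions of 2 conditions. Between primed and naive ES cells 2 of 33 members were more enriched in primed cells and 4 less, or 6.06% and 12.1%, beside 11.4% and 13.9% of all genes. The values of each library are those given above for both cell types where the gene was named there. Lamc1 had a difference of log2 -0.65 ± 0.18, edgeR adjusted p = 0.0276, with log2 enrichment -0.94 in naive and -1.73 in primed cells. The epithelial chain Lama3 had 19.9 and 17.6 CPM in P-bodies and 19.6 and 19.9 CPM in cytoplasm of naive cells, and 8.22 and 7.90 CPM in P-bodies and 18.1 and 19.1 CPM in cytoplasm of primed cells, a difference of log2 -1.19 ± 0.20, edgeR adjusted p = 0.00329.

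Of the integrins, Itgav and Itga6 were less enriched in primed cells. Itgav had 52.4 and 52.6 CPM in P-bodies and 53.7 and 77.2 CPM in cytoplasm of naive cells and 33.9 and 34.3 CPM in P-bodies and 89.0 and 75.3 CPM in cytoplasm of primed cells (log2 -1.01 ± 0.23, edgeR adjusted p = 0.0124). Itga6 had 195 and 209.9 CPM in P-bodies and 336 and 275 CPM in cytoplasm of naive cells and 108 and 108 CPM in P-bodies and 288 and 296 CPM in cytoplasm of primed cells (log2 -0.90 ± 0.15, edgeR adjusted p = 0.00293). For both genes the gap between P-bodies and cytoplasm was wider in primed than in naive cells. Itga3 and Itgb5 differed the other way. Itga3, depleted in both, had 90.9 and 87.7 CPM in P-bodies and 216 and 203 CPM in cytoplasm of primed cells (log2 1.04 ± 0.12, edgeR adjusted p = 0.000761). Itgb5 had 92.3 and 92.4 CPM in P-bodies and 191 and 205 CPM in cytoplasm of naive cells and 78.6 and 85.1 CPM in P-bodies and 69.7 and 109 CPM in cytoplasm of primed cells (log2 0.91 ± 0.24, edgeR adjusted p = 0.0248).

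Itgb1 had a difference of log2 -0.77 ± 0.28, edgeR adjusted p = 0.0775, which was not called, while DESeq2 (0.0236), no read minimum (0.0259) and all groups in 1 fit (0.0149) gave it adjusted p-values under the threshold. Without either naive P-body library Lamc1, Itgb5 and Itgav were not called (edgeR adjusted p from 0.0546 to 0.0974), at log2 values within 0.01 of those above. Lamc1 was also not called without primed P-body replicate 1 or either primed cytoplasm library (up to an edgeR adjusted p of 0.0718), and Itgb5 without either primed P-body library or primed cytoplasm replicate 1 (log2 0.51, 0.0519). Between 3 and 17 members were called, the most without naive cytoplasm replicate 2 and the fewest without either naive P-body library, and 13 without naive cytoplasm replicate 1. With all groups in 1 fit the edgeR adjusted p was 0.165 for Itgb5 and 0.133 for Lama3. Partner genes differed in both directions, 5 of 27 higher and 6 lower, with Cd151 (log2 1.33 ± 0.22, edgeR adjusted p = 0.00299) and Parva (log2 1.15 ± 0.21, edgeR adjusted p = 0.00512) highest and Lims1 (log2 -1.51 ± 0.19, edgeR adjusted p = 0.000903) and Nid2 (log2 -1.01 ± 0.12, edgeR adjusted p = 0.000809) lowest.

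Between MEFs and naive ES cells 7 of 35 members were more enriched in MEFs and 6 less, or 20% and 17.1%, beside 19.8% and 21.5% of all genes. Lamc1 (log2 -1.17 ± 0.19, edgeR adjusted p = 0.000751) and Itgb1 (log2 -0.86 ± 0.27, edgeR adjusted p = 0.0307) were less enriched in MEFs, at log2 enrichment -2.30 against -0.94 and -0.73 against 0.32. Lama4 also differed downward (log2 -1.64 ± 0.38, edgeR adjusted p = 0.00658). Itga4 had 1.87 and 1.22 CPM in P-bodies and 0.494 and 0.737 CPM in cytoplasm of naive cells and 3.25 and 2.93 CPM in P-bodies and 7.27 and 8.71 CPM in cytoplasm of MEFs (log2 -2.67 ± 0.52, edgeR adjusted p = 0.00247), and Itga9 had 9.46 and 7.63 CPM in P-bodies and 3.46 and 10.4 CPM in cytoplasm of naive cells and 6.42 and 5.73 CPM in P-bodies and 14.1 and 16.4 CPM in cytoplasm of MEFs (log2 -1.63 ± 0.56, edgeR adjusted p = 0.0416).

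Itga3 was more enriched in MEFs than in naive cells, with 11.7 and 9.53 CPM in P-bodies and 16.4 and 13.2 CPM in cytoplasm of MEFs (log2 1.85 ± 0.21, edgeR adjusted p = 8.50e-05), and so was Itga2b, which had 0.374 and 0.812 CPM in P-bodies and 1.65 and 1.15 CPM in cytoplasm of naive cells (log2 2.15 ± 0.61, edgeR adjusted p = 0.0185). Itgal had 8.80 and 10.6 CPM in P-bodies and 23.1 and 18.4 CPM in cytoplasm of naive cells and 0.0856 and 0.502 CPM in P-bodies and 0 and 0.0375 CPM in cytoplasm of MEFs (log2 4.67 ± 1.17, edgeR adjusted p = 0.00966). In MEFs these were 2 and 12 reads in P-bodies and 0 and 1 in cytoplasm, so its value rests on few reads. Without MEF P-body replicate 2 it was 2.73 (edgeR adjusted p = 0.161), without MEF cytoplasm replicate 1 it was 3.60 (0.0599), and without replicate 2 6.24 (0.0247).

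Other calls of this contrast also depended on single libraries. Itgb1 was not called without either naive P-body library (0.107 and 0.0943 in edgeR) or MEF P-body replicate 1 (0.0516), and Lama4 without naive P-body replicate 1 (0.0635), with a value of -2.27 without MEF P-body replicate 1. Itga2b kept its call only without naive P-body replicate 2 (2.82), naive cytoplasm replicate 2 or MEF P-body replicate 2, and Itga9 without naive cytoplasm replicate 1 (-1.04) or 2 (-2.63) or MEF cytoplasm replicate 1. In the other fits their edgeR adjusted p reached 0.158. With all groups in 1 fit Itgal (edgeR adjusted p = 0.0633) and Itga2b (0.0578) were not called. The number of members called was 6 without naive P-body replicate 1, 7 without MEF P-body replicate 1, and 8 without naive P-body replicate 2 or either MEF cytoplasm library. Among the partners, 7 of 27 were higher, Fermt3 (log2 2.38 ± 0.46, edgeR adjusted p = 0.00232) and Itgb1bp1 (log2 1.25 ± 0.20, edgeR adjusted p = 0.000784) most, and 9 lower, Dag1 (log2 -1.72 ± 0.19, edgeR adjusted p = 7.87e-05) and Lims1 (log2 -1.70 ± 0.23, edgeR adjusted p = 0.000293) most.

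From MEFs to day 3 of reprogramming the log2 enrichment of 11 of 36 members was higher and that of 0 lower. These were 30.6% and 0%, beside 9.59% and 5.13% of all genes. All 11 were depleted in MEFs. Over all genes, 28.7% were depleted and 26.6% enriched in MEFs, against 0.450% and 0.196% at day 3. The part of this drop in calls over all genes in the change of the members was not tested. The members' median difference was 0.37 (0.003 over all genes). Lama4 changed most (log2 3.15 ± 0.25, edgeR adjusted p = 0.000215): its log2 enrichment was -3.39 in MEFs and -0.28 at day 3, where it had 414 and 374 CPM in P-bodies and 484 and 480.0 CPM in cytoplasm. Lamc1 had log2 1.12 ± 0.19, edgeR adjusted p = 0.00498 and Itgb1 log2 0.65 ± 0.17, edgeR adjusted p = 0.0302. Itgb3 had 11.1 and 6.83 CPM in P-bodies and 17.3 and 16.6 CPM in day 3 cytoplasm (log2 2.1 ± 0.27, edgeR adjusted p = 0.00178).

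Itgb8 had 1.76 and 1.25 CPM in P-bodies and 6.12 and 5.52 CPM in cytoplasm of MEFs and 1.90 and 2.62 CPM in P-bodies and 1.82 and 1.34 CPM in day 3 cytoplasm (log2 2.45 ± 0.54, edgeR adjusted p = 0.0146). Itgbl1 had 9.29 and 9.11 CPM in P-bodies and 37.8 and 35.2 CPM in cytoplasm of MEFs and 14.9 and 11 CPM in P-bodies and 14.8 and 16.8 CPM in day 3 cytoplasm (log2 1.70 ± 0.26, edgeR adjusted p = 0.00337). Both were depleted in MEFs, and at day 3 their fractions lay close together. Leaving out a day 3 cytoplasm library ended the calls of Lamc1 (edgeR adjusted p = 0.0607 and 0.0709), Itgb1 and Itgb8, leaving out a MEF cytoplasm library those of Itgb1 and Itgb8, leaving out MEF P-body replicate 2 that of Itgb8 (0.0517) and leaving out either MEF P-body library that of Itgb1, with up to 0.229. The number called was 4 without either day 3 cytoplasm library, 6 without MEF P-body replicate 2 or either MEF cytoplasm library and 16 without day 3 P-body replicate 1. In that fit 11 members were higher and 5 lower, their median was -0.22 (-0.15 over all genes) and 15 of 36 were above 0, so the direction of the median rested on that library. All groups in 1 fit gave Itgb1 0.0943. Of the partner list, 12 of 27 were higher, Fn1 (log2 1.43 ± 0.16, edgeR adjusted p = 0.000952) and Tns3 (log2 1.35 ± 0.21, edgeR adjusted p = 0.00400) most, and Itgb1bp1 (log2 -0.83 ± 0.18, edgeR adjusted p = 0.0147) and Cd151 (log2 -0.68 ± 0.20, edgeR adjusted p = 0.0412) were lower.

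Between the Nudt21 hairpin and the day 3 control no difference in enrichment was called for a member, 0 of 36, beside 0.00% higher and 0.0118% lower of all genes in edgeR. DESeq2 called 0 as well, and 2 members passed at an unadjusted p under 0.05 in each tool. Lamc1 had log2 0.51 ± 0.20, edgeR adjusted p = 0.894 and Itgb1 log2 0.12 ± 0.17, edgeR adjusted p = 0.940. The median difference of the members was 0.26 (0.03 over all genes), and 29 of 36 were above 0. Without day 3 control P-body replicate 1, 8 members were called, all higher. Without replicate 2, 0 were called, the median was -0.005 and 17 of 36 were above 0. No partner gene of 26 was called. Cytoplasmic Lamc1 itself was 3.31-fold higher with the hairpin, as given above, and its depletion was called in both conditions.

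Ribosome occupancy was measured in naive ES cells of the degron clone. Without the inducer, 17 of 29 members were lower in ribosome-bound than in total RNA and 0 higher, beside 24.1% lower and 18.8% higher of all genes. The members' median was -1.10 against 0.02 over all genes, with -1.21 for the laminins (7 of 10 lower), -0.93 for the alpha subunits (6 of 13) and -0.87 for the beta genes (4 of 6). Lamc1 was the lowest member. It had 101, 98.2 and 94.4 CPM in ribosome-bound RNA and 639.7, 653 and 565 CPM in total RNA (log2 -2.67 ± 0.07, edgeR adjusted p = 1.98e-13). Lamb1 had 5.35, 4.98 and 4.30 CPM in ribosome-bound RNA and 25.9, 27.9 and 22.6 CPM in total RNA (log2 -2.38 ± 0.12, edgeR adjusted p = 7.08e-11). The ribosome-bound libraries of both chains lay below all total RNA libraries.

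Of the integrins, Itga3 had 3.09, 2.56 and 2.33 CPM in ribosome-bound RNA and 9.86, 10.6 and 8.13 CPM in total RNA (log2 -1.85 ± 0.16, edgeR adjusted p = 6.53e-08), and Itgb1 had 56.8, 57.5 and 61.4 CPM in ribosome-bound RNA and 204, 204 and 181 CPM in total RNA (log2 -1.76 ± 0.07, edgeR adjusted p = 5.91e-12). Neither overlapped between fractions. The members not called ran from Itgb5 at -0.02, with 68.0, 72.1 and 76.0 CPM in ribosome-bound RNA and 71.0, 69.2 and 78.0 CPM in total RNA, to several integrins of few reads. Leaving out any 1 of the 6 libraries left 17 members called. Of the partner genes 20 of 27 were lower, with the collagen IV chains Col4a2 (log2 -3.28 ± 0.16, edgeR adjusted p = 4.37e-11) and Col4a1 (log2 -2.87 ± 0.14, edgeR adjusted p = 4.71e-11) lowest, and 2 higher, Itgb1bp1 (log2 0.45 ± 0.08, edgeR adjusted p = 0.000357) and Lims1 (log2 0.17 ± 0.07, edgeR adjusted p = 0.0474).

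With DDX6 removed, 18 of 28 members were lower and 0 higher in ribosome-bound RNA, beside 26.8% and 24.0% of all genes, and the median was -1.01 (0.02 over all genes). Lamc1 had 83.8, 91.4 and 87.1 CPM in ribosome-bound RNA and 564, 551 and 599.5 CPM in total RNA (log2 -2.73 ± 0.05, edgeR adjusted p = 1.47e-21). Itgb1 had 55.9, 48.1 and 50.5 CPM in ribosome-bound RNA and 194, 182 and 192 CPM in total RNA (log2 -1.90 ± 0.05, edgeR adjusted p = 1.69e-18). Lamb1 had 4.32, 5.21 and 4.77 CPM in ribosome-bound RNA and 22.8, 20.4 and 23.2 CPM in total RNA (log2 -2.23 ± 0.10, edgeR adjusted p = 3.52e-15), and Lamb2, the beta chain of the neuromuscular and vascular laminins, had 11, 10.9 and 10.4 CPM in ribosome-bound RNA and 35.8, 37.6 and 39.8 CPM in total RNA (log2 -1.83 ± 0.07, edgeR adjusted p = 2.82e-16). The fractions of these 4 genes did not overlap. Lama4 was called here although its libraries overlapped, with 0.515, 0.0959 and 0.284 CPM in ribosome-bound and 0.669, 0.965 and 0.513 CPM in total RNA (log2 -1.31 ± 0.50, edgeR adjusted p = 0.0308). From 16 to 18 members were called when 1 library was left out. Among the partner genes 22 of 27 were lower, again with Col4a2 (log2 -3.24 ± 0.13, edgeR adjusted p = 1.0e-15) and Col4a1 (log2 -2.98 ± 0.12, edgeR adjusted p = 1.98e-15) lowest, and 3 higher, with Itgb1bp1 (log2 0.29 ± 0.06, edgeR adjusted p = 0.000236) and Lims1 (log2 0.27 ± 0.05, edgeR adjusted p = 4.81e-05) most.

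**Figure D5:**
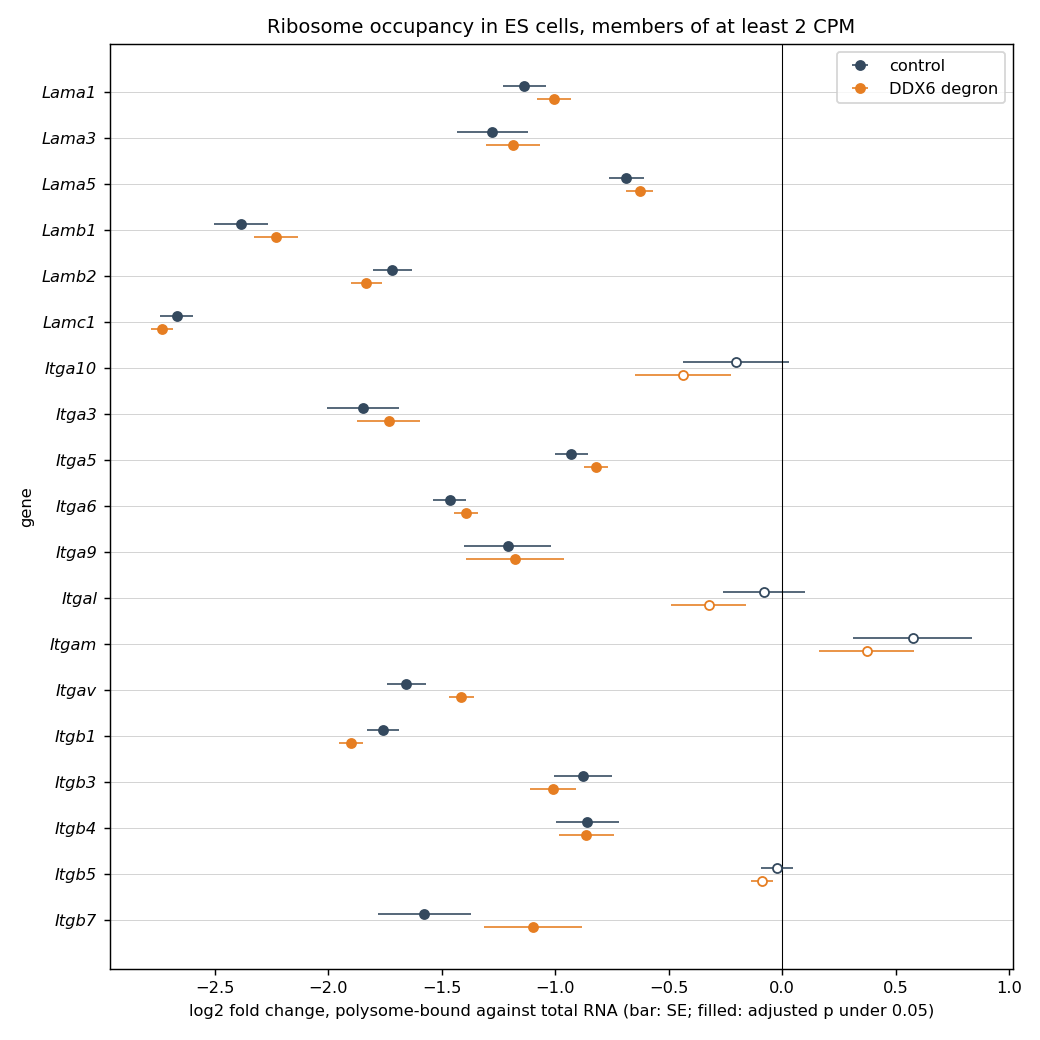
Fitted log2 ribosome occupancy (ribosome-bound over total RNA) of 19 members with a mean of at least 2 CPM, in control cells and with DDX6 removed, with error bars of 1 SE and filled points for calls. Most points lie left of 0, and Lamc1 lies lowest in both, at -2.67 and -2.73.

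The change in occupancy on DDX6 removal was tested directly, with 0.00% of all genes higher and 0.00% lower, and 0 of 31 members were called by edgeR or by DESeq2. At an unadjusted p under 0.05, 1 member passed in each tool. Lamc1 had log2 -0.07 ± 0.08, edgeR adjusted p = 0.937 and Itgb1 log2 -0.15 ± 0.09, edgeR adjusted p = 0.879. The median change was 0.05 (-0.01 over all genes). None of the 27 partner genes was called.

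Total RNA gave 1 called member of 30 on DDX6 removal, lower, and 0 higher, beside 2.07% lower and 1.24% higher of all genes. Lama5 had 68.0, 68.7 and 70.9 CPM with DDX6 removed and 86.5, 85.2 and 82.5 CPM in control cells (log2 -0.29 ± 0.06, edgeR adjusted p = 0.0228). Its libraries did not overlap, but its call was lost without control replicate 1 (0.0995 in edgeR) or 2 (0.0912) and without any 1 of the DDX6-removed libraries (0.0665 to 0.156), while 4 members were called without control replicate 3. Lamc1 had 564, 551 and 599.5 CPM against 639.7, 653 and 565 CPM (log2 -0.11 ± 0.06, edgeR adjusted p = 0.324) and Itgb1 194, 182 and 192 CPM against 204, 204 and 181 CPM (log2 -0.05 ± 0.06, edgeR adjusted p = 0.675). Among the partners, Itgb1bp1 (log2 0.38 ± 0.07, edgeR adjusted p = 0.0128) was higher, 1 of 27, and 0 lower.

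Set side by side, 7 members were both depleted from naive P-bodies and lower in ribosome-bound RNA of control cells, which was 63.6% of the 11 depleted and 41.2% of the 17 with lower occupancy. Over all genes 795 were both, or 32.9% of the 2413 depleted and 21.4% of the 3719 with lower occupancy. Lower occupancy was called for 58.6% of all members tested, near the 63.6% above, and for 24.1% of all genes tested. Naive depletion was called for 35.5% of all members tested, near the 41.2%, and for 15.4% of all genes tested. Lamc1 had log2 enrichment -0.94 and log2 occupancy -2.67, Itga3 -2.09 and -1.85, and Lamb1 -1.26 and -2.38. Itgb1 combined a naive enrichment of 0.32, not called, with an occupancy of -1.76. Across genes, log2 enrichment in naive cells went with the GC content of the transcript. Its Spearman rho was -0.452 over 31 members and -0.632 over 14292 genes. In primed cells the rho with GC content was -0.287 over members and -0.392 over all genes, and in MEFs 0.172 and -0.047. With coding length, enrichment had -0.297 and 0.073 in naive cells, -0.36 and -0.135 in primed cells and 0.129 and -0.451 in MEFs. Log2 occupancy went with coding length at -0.084 over 29 members and -0.585 over 14300 genes. Genes of a table share its libraries and are no replicates, so these rho values are descriptions.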

How the data were processed

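P-body and cytoplasm libraries were made with SMART-Seq from GFP-LSM14A cells, and the cytoplasmic fraction was the resuspended pellet of a lysate freed of nuclei. The authors aligned the reads with HISAT2 to mm10 and deposited estimated counts per refGene gene from featureCounts, of which 17.6% to 25.7% of the values per library were not whole. For the polysome libraries, the deposited expected counts came from salmon with refGene (5.05% to 6.19% not whole), and those of the Ago2 KO libraries from salmon with Ensembl identifiers (11.6% to 13.1% not whole), with the annotation release not given in the sources used here. Deposited tables of the authors' own DESeq2 comparisons (log2 fold change and adjusted p per gene) were not used, and 0 other columns of per-sample values were left out.

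Counts were rounded and tested with edgeR (version 4.0.16, R version 4.3.3) by its two-sided quasi-likelihood test with TMM factors, separately for each of 18 comparisons and over the genes that reached 10 reads in the libraries of that fit together. An adjusted p (Benjamini-Hochberg over all genes tested) under 0.05 was called. A difference in enrichment or occupancy was an interaction contrast over 4 groups. Groups came from the sample titles. The members, the partner list and the rule for named genes were chosen with earlier results of these data known. Named in each comparison were Lamc1, Itgb1 and the called members with the 4 largest changes in each direction at a mean of 2 CPM or more, and in each cell type the 3 laminins and 5 integrins highest per kb. Of these, 1 member is not reported here and was left out of the plots, though it stayed in all fits and counts. Lengths and 3′ UTRs were those of the longest GENCODE protein-coding transcript. Some of the fits were tried on simulated data in which all groups had equal noise. Noise differed between the real groups, and the enrichment fits of Ago2 KO and day 3 cells were not simulated. Alternatives were DESeq2 (version 1.42.0), its size factors in edgeR, filterByExpr, no read minimum, a block for the replicate number, all groups in 1 fit and leaving out each library. Plots were drawn with matplotlib (version 3.10.9).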

Additional observations from a re-analysis of the deposited data

Results flagged for a closer look

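The P-body enrichment of 20 named genes and contrasts differed between cell types by the interaction test of edgeR. These are listed for a closer look. Between primed and naive ES cells 6.06% of members were called higher and 12.1% lower, beside 11.4% and 13.9% of all genes. Between MEFs and naive ES cells the shares were 20% and 17.1%, beside 19.8% and 21.5%. Between the day 3 control and MEFs they were 30.6% and 0%, beside 9.59% and 5.13%. The values are differences in log2 enrichment. Leaving out a single library ended some of the listed calls in each contrast, as given above. These were Lamc1, Itgb5 and Itgav (primed and naive), Itgal, Itgb1, Itga2b, Itga9 and Lama4 (MEF and naive), and Lamc1, Itgb1 and Itgb8 (day 3 and MEF).

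Primed minus naive ES cells gave 1.04 for Itga3, 0.911 for Itgb5, -0.903 for Itga6, -1.01 for Itgav, -1.19 for Lama3 and -0.653 for Lamc1. MEFs minus naive ES cells gave 4.67 for Itgal, 2.15 for Itga2b, 1.85 for Itga3, -0.857 for Itgb1, -1.17 for Lamc1, -1.63 for Itga9, -1.64 for Lama4 and -2.67 for Itga4. The value of Itgal rests on 2 and 12 reads in MEF P-bodies and 0 and 1 in MEF cytoplasm.

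The day 3 control minus MEFs gave 3.15 for Lama4, 2.45 for Itgb8, 2.099 for Itgb3, 1.70 for Itgbl1, 1.12 for Lamc1 and 0.648 for Itgb1. Lamc1 and Itgb1 thus differed down from naive cells to MEFs and up from MEFs to day 3, where both contrasts use the MEF libraries. No group had 4 or more libraries, so single libraries were not tested for standing apart.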

How the results depend on the processing

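Of 107 named values, 637 refits under the alternatives that keep all libraries kept 621 on their side of the threshold, 12 lost and 4 gained a call, and 0 changed sign. Leaving out 1 library in 562 refits kept 470, lost 80, gained 6 and turned the sign of 6. With 1 library left in a group, that library is assumed to vary like the other groups. The 6 turned values are all of Itgb1, which was not called in these comparisons. Over the libraries left out, its log2 enrichment ran from -0.009 (without cytoplasm replicate 2) to 0.763 in naive cells, from -0.319 to 0.057 (without P-body replicate 2) in the day 3 control, from -0.085 to 0.025 (without P-body replicate 2) with the Nudt21 hairpin and from -0.371 to 0.118 (without cytoplasm replicate 2, and 0.007 without P-body replicate 1) in Ago2 KO cells. The difference between hairpin and day 3 control ran from -0.069 (without control P-body replicate 2) to 0.322.

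Counts of members called moved by over 1.5 times as follows, and the causes were not tested. For enrichment in the day 3 control, 2 became 12 with DESeq2, 4 with filterByExpr, 14 with no read minimum, 10 with the replicate block and 15 with all groups in 1 fit. With the Nudt21 hairpin 16 became 8, and for cytoplasm of the hairpin against the day 3 control 20 became 13, with all groups in 1 fit. In Ago2 KO cells 4 became 7 with DESeq2, 2 with DESeq2 size factors, 10 with no read minimum and 14 with the replicate block, which also took the depleted partner genes from 1 to 17 there and from 4 to 12 at day 3. For total RNA on DDX6 removal 1 became 2 with DESeq2, 2 with no read minimum, 0 with the replicate block and 2 with all groups in 1 fit.

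Leaving out 1 library gave 3 to 23 members called for enrichment in naive cells, 17 to 21 in primed cells, 18 to 27 in MEFs, 2 to 27 in the day 3 control, 5 to 18 with the Nudt21 hairpin and 0 to 15 in Ago2 KO cells. For cytoplasm it gave 6 to 21 (primed against naive), 26 to 31 (MEF against naive), 29 to 30 (day 3 against MEF) and 19 to 21 (hairpin against day 3). For differences in enrichment it gave 3 to 17 (primed and naive), 6 to 16 (MEF and naive), 4 to 16 (day 3 and MEF) and 0 to 8 (hairpin and day 3). Occupancy gave 17 to 17 in control cells and 16 to 18 with DDX6 removed, its change 0 to 0, and total RNA 0 to 4.

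P-bodies were sorted from a cytoplasmic fraction of which aliquots gave the cytoplasm libraries, but no source used here says that equal replicate numbers mark 1 preparation, so the numbers were not taken as pairs. Correlations of same-numbered deviations ran from -0.047 to 0.113 in the P-body table, 0.027 to 0.324 in control polysomes and -0.107 to 0.204 with DDX6 removed, and reached 0.542 in Ago2 KO cells. Not every library correlated best with its own number. Beside the counts above, the block changed the call of Itgb1 between primed and naive enrichment (edgeR adjusted p = 0.0428) and of Lama5 in total RNA (0.110). Members of a few reads per library, such as Itgal in MEFs or Itgb8 in ES cells, have values that 1 library can move by more than 1.5 times.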
